A study of Homo sapiens with 16 samples.

Results

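Chromatin contacts after 0.25 h and after 3 h of digestion with HindIII were compared by Hi-C in K562 cells, an established human leukaemia line with erythroid and megakaryocytic features. The members were chosen by the sample labels: 8 of the 16 samples of the series carry the times 0.25 h or 3 h. There were 2 replicates a time, with 2 sequencing runs each whose contacts were added, so 4 of 8 libraries were compared. The libraries of 1 h, which lie between the compared times, entered the same models to help estimate the spread between replicates, and the 12 h libraries were not used. All groups shared the cell line, fixation with 2% formaldehyde, ligation inside the nuclei and enrichment of biotin-marked junctions, and the labels name no difference between them other than the length of digestion. The labels do not say whether replicates were separate cultures, so p-values measure the spread between these libraries, which may be technical.

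Hi-C cuts cross-linked chromatin with a restriction enzyme, joins ends that are near neighbours in nuclear space, and counts each joined pair by sequencing. HindIII recognises a 6-base site, and a site is cut only where the enzyme can reach it, so the length of digestion sets how many ends are free to be joined. Contact maps show features at several scales. Contacts become rarer with genomic distance, chromosomes segregate into an active, gene-dense class and an inactive class of chromatin (compartments A and B), and contacts are depleted across the boundaries between domains, where CTCF, cohesin and active promoters are often found. The series varied digestion to ask which boundaries are reached at the shortest times.

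The 0.25 h libraries held 126175113 and 71696245 contacts in replicates 1 and 2, the 1 h libraries 134133654 and 92139516, and the 3 h libraries 160355300 and 123979209. Depth was thus higher at the later times within each replicate number, and the 0.25 h library of replicate 2 was the shallowest. The files hold balanced values, in which all bins have the same total, and whole contacts were recovered from them. Recovered contacts were summed in 100 kb bins of hg19, of which 27774 on chromosomes 1 to 22 and X were used, and a median bin held 3064 to 7434 contacts with other bins in a library. As a check of the cell label, contacts between BCR and ABL1, the genes joined by the translocation that K562 carries, were counted in the 6 pairs of bins that cover them. These pairs are 0.00186% of the bin pairs between chromosomes 9 and 22. They held 6.15% and 5.57% of the contacts between these chromosomes at 0.25 h, 6.24% and 6.14% at 1 h, then 6.52% and 6.18% at 3 h. The junction was therefore seen in all 6 libraries (exact 95% binomial intervals of 5.92% to 6.39% and 5.27% to 5.88% at 0.25 h, and 6.32% to 6.73% and 5.96% to 6.41% at 3 h). The interval of the 0.25 h library of replicate 2 lay below those of both 3 h libraries, but also below that of 0.25 h replicate 1. The interval of 0.25 h replicate 1 overlapped those of both 3 h libraries. These intervals cover counting error only and leave out the spread between libraries. They take each contact as an independent molecule, and are too narrow where amplified reads are not.

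The 3 h libraries had a smaller share of very short contacts. Contacts inside a 100 kb bin, called self contacts here, made up 37.8% and 40.9% of all cis contacts (contacts within a chromosome) at 0.25 h, 36.7% and 36.7% at 1 h, then 36.0% and 35.4% at 3 h. The groups of 0.25 h and 3 h did not overlap, and the 0.25 h library of replicate 2 stood highest of all 6. The difference was -1.85 percentage points in replicate 1 and -5.58 in replicate 2. Spearman's rho with log2 hours over the 6 libraries was -0.956 (exact two-sided permutation p = 0.0222, the lowest that this rank trend can reach with 2 libraries at each time; Benjamini-Hochberg value 0.0519 over 7 measures). Pearson's coefficient r was -0.848, with an exact permutation p of 0.0111, and -0.910 without the 0.25 h libraries, which lie farthest from the median time. A comparison of 2 libraries with 2 alone cannot go below an exact permutation p of 0.333, and for that reason the trend over 3 times is given.

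In the second run, whose bins are 20 kb wide, the lower share was seen inside the bin, and every class of distance from 20 to 1980 kb was higher at 3 h in both replicates. Contacts inside a 20 kb bin were 20.4% and 24.2% of all contacts at 0.25 h, 18.9% and 19.3% at 1 h, then 18.05% and 17.90% at 3 h. Contacts between neighbouring 20 kb bins already went the other way, from 12.03% and 11.02% at 0.25 h to 12.32% and 11.77% at 3 h. At distances of 200 to 480 kb the share was 9.89% and 9.31% at 0.25 h against 10.4% and 10.3% at 3 h.

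The lower self-contact share was spread over the genome. For each bin the log2 ratio of self contacts to its other contacts was tested with limma (3 h minus 0.25 h, Benjamini-Hochberg adjusted p below 0.05 over all bins). Of 27774 bins, 9521 (34.3%) had a lower ratio at 3 h and 9 (0.0324%) a higher one. The ratio was lower in both replicate numbers in 86.1% of bins, with a median difference of -0.12 in replicate 1 and -0.31 in replicate 2. The median was lower in both replicates on 23 of 23 chromosomes and in each of 10 equal classes of bins by contact level. The share of bins called lower was 35.4% in class 1 chromatin, defined below by its contacts with gene-rich chromosomes, and 33.4% in class 2, close to the 34.3% of all bins. Larger shares were called on chromosome 19 (45.7%) and within 2 Mb of a chromosome end (40.2%). On the gene-rich chromosomes listed below the shares were 40.5% in class 1 and 40.7% in class 2. With the replicate number as a block, 10220 bins (36.8%) were called, 36 of them higher (0.13%). The count moved with each library left out: without 3 h replicate 1 it was 1 and without 3 h replicate 2 it was 0, against 20122 without 0.25 h replicate 1, 5652 without 0.25 h replicate 2, 4663 without 1 h replicate 1 and 4595 without 1 h replicate 2. In the first run alone, which is shallower, 21 bins were called, and with the 1 h libraries left out of the model 4642. When each library was centred on its own median, so that only departures from the genome-wide difference were left, no bin was called by limma (5129 at an unadjusted p below 0.05). With centring, the differences of bins named below went from -1.04 to -0.81 (chromosome 19), from -0.99 to -0.76 (chromosome 16) and from 0.61 to 0.84 (chromosome 10), each with a limma adjusted p of 0.179.

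Among the bins called lower, the 5 with the largest differences were on 5 chromosomes. At chr19:42800001-42900000 self contacts were 17.05% and 24.53% of the bin's contacts at 0.25 h, 13.9% and 13.1% at 1 h, then 11.4% and 10.9% at 3 h. The log2 ratio there differed by -1.04 (SE 0.16, limma adjusted p = 0.0290), and the 0.25 h library of replicate 2 lay far above the other 5. The other 4 were chr21:45800001-45900000, chr8:12400001-12500000, chr16:16100001-16200000 and chr7:143500001-143600000, with differences of -1.004, -0.9999, -0.993 and -0.971 (limma adjusted p = 0.0290 for each). In all 5 bins the 0.25 h library of replicate 2 had the highest share, and without it the difference on chromosome 7 was -0.62. None of the 5 passed without 3 h replicate 1 (limma adjusted p = 0.155 for each) or without 3 h replicate 2 (0.260 for each).

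The bins called higher had few self contacts at 0.25 h. At chr10:89100001-89200000 the share was 7.31% and 5.22% at 0.25 h, 9.16% and 8.95% at 1 h, then 9.97% and 8.51% at 3 h, from 32 to 144 self contacts in a library. The log2 ratio differed by 0.61 (SE 0.16, limma adjusted p = 0.0297). The other 4 with the largest differences were chr19:42500001-42600000, chr2:240400001-240500000, chr11:2800001-2900000 and chr14:101700001-101800000, which differed by 0.48, 0.45, 0.36 and 0.27. With the 1 h libraries left out, the bins of chromosomes 11 and 14 did not pass (limma adjusted p = 0.0609 and 0.0776), and that of chromosome 14 did not pass in the second run alone (0.0507). Without 0.25 h replicate 2 the bins of chromosomes 10, 19, 2 and 14 did not pass (limma adjusted p = 0.0564, 0.0709, 0.151 and 0.0819), and the differences on chromosomes 10 and 2 went to 0.36 and 0.25. The bin of chromosome 11 did not pass without 0.25 h replicate 1 (limma adjusted p = 0.0896), and none of the 5 passed without either 3 h library. In the first run alone limma called 0 bins higher, against 21 lower. All 9 bins called higher were in the lowest of the 10 classes by contact level. All 5 bins were in class 1. The bins of chromosome 19 named here for a higher and for a lower ratio lie close together, so opposite calls occurred within a short stretch.

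**Figure D1:**
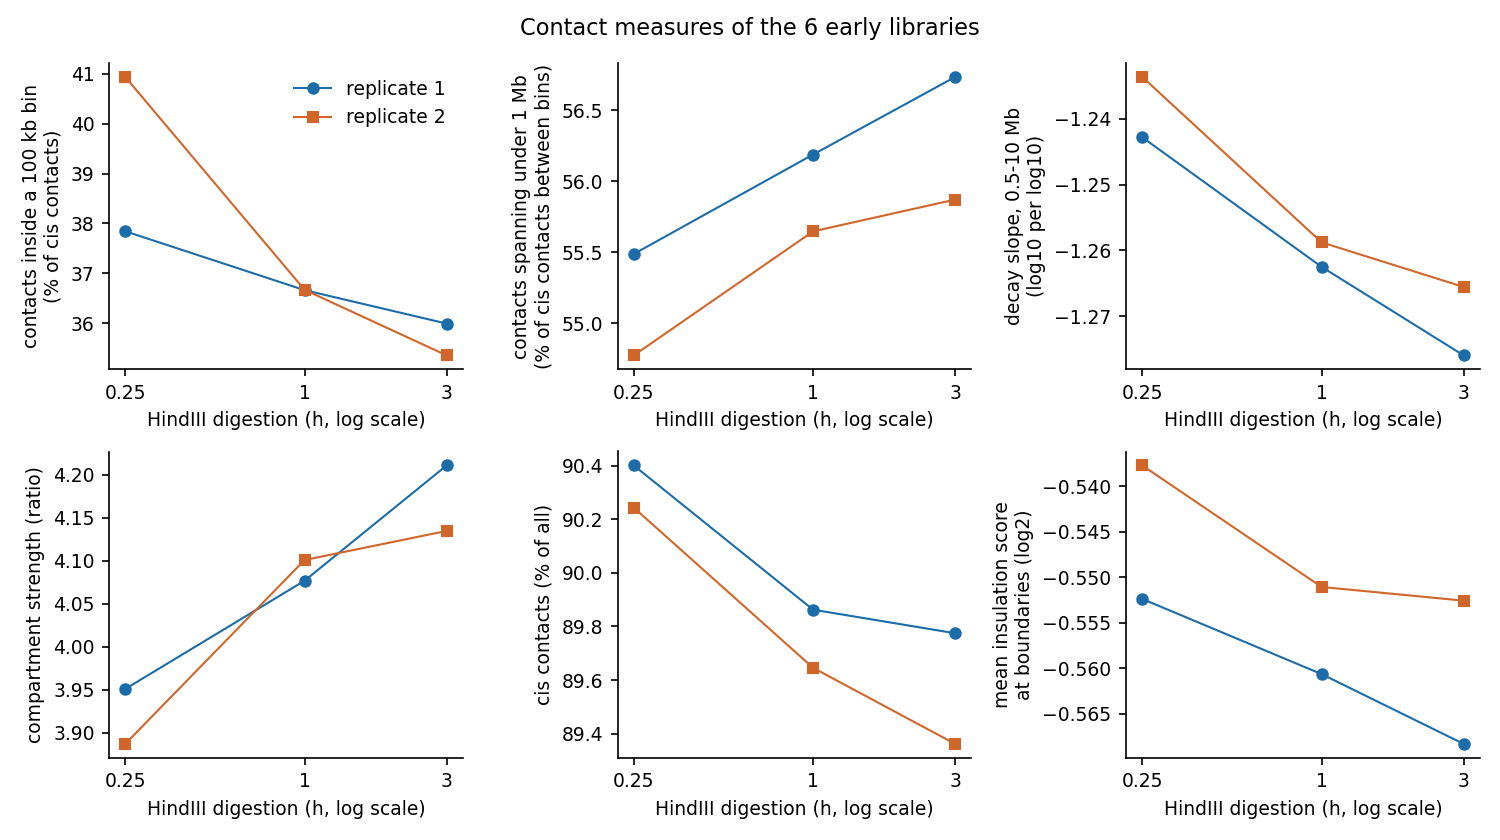
The 6 contact measures (vertical axes, units as labelled) against hours of digestion (log scale) for the 6 early libraries, with replicate 1 as circles and replicate 2 as squares joined by lines. The self-contact share was 37.8% and 40.9% at 0.25 h against 36.0% and 35.4% at 3 h, and compartment strength was 3.95 and 3.89 against 4.21 and 4.13.

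Among contacts between different 100 kb bins, those of intermediate range were a smaller part at 3 h. Contacts spanning under 1 Mb were 55.49% and 54.77% of such cis contacts at 0.25 h, 56.19% and 55.65% at 1 h, then 56.73% and 55.87% at 3 h. The 0.25 h and 3 h groups did not overlap, and the difference was 1.25 percentage points in replicate 1 and 1.10 in replicate 2 (rho 0.837, exact permutation p = 0.0667, Benjamini-Hochberg value 0.0933; Pearson's r 0.799, exact permutation p = 0.0556, and 0.471 without the 0.25 h libraries). The slope of log10 contact frequency on log10 distance from 0.5 to 10 Mb was -1.243 and -1.234 at 0.25 h, -1.262 and -1.259 at 1 h, then -1.276 and -1.266 at 3 h. Every 3 h library was steeper than every 0.25 h library (rho -0.956, exact permutation p = 0.0222, Benjamini-Hochberg value 0.0519; Pearson's r -0.946, exact permutation p = 0.0111, and -0.792 without the 0.25 h libraries). From 1 to 30 Mb the 0.25 h slopes of -1.177 and -1.170 lay beside -1.178 and -1.171 at 3 h (rho -0.359, exact permutation p = 0.533).

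Split by distance, the difference had the same shape in both replicates. From 100 to 700 kb the share of each distance class was higher at 3 h by 0.023 to 0.044 on the log2 scale. From 1.3 to 19.9 Mb every class was lower, and the lowest value was at 5 to 7.9 Mb, where the share was 4.75% and 4.83% at 0.25 h, 4.57% and 4.62% at 1 h, then 4.45% and 4.56% at 3 h. The log2 ratio of 3 h over 0.25 h was -0.094 in replicate 1 and -0.083 in replicate 2 in that class. Beyond 32 Mb the classes were again higher at 3 h, by 0.017 to 0.047. The 1 h libraries lay between the 0.25 h and 3 h libraries at 5 to 7.9 Mb in both replicates. These are shares of a fixed total, so a lower share in some classes raises the others.

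**Figure D2:**
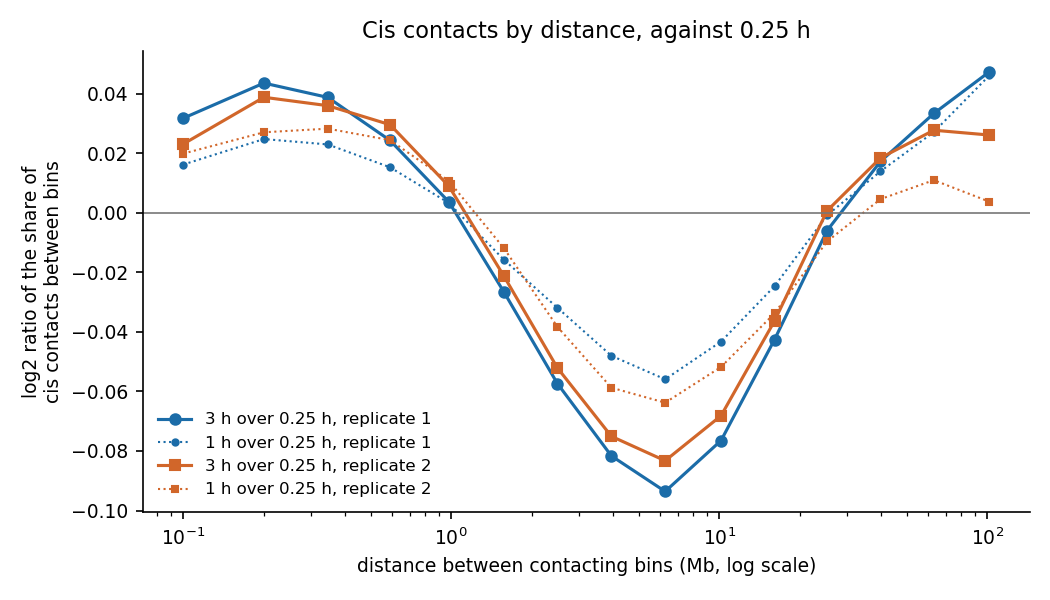
Log2 ratio of the share of cis contacts between 100 kb bins (vertical axis), 3 h over 0.25 h (solid) and 1 h over 0.25 h (dotted), by distance in Mb (log scale) for replicates 1 (circles) and 2 (squares). In both replicates the 3 h ratio is above 0 from 100 to 700 kb, lowest at 5 to 7.9 Mb (-0.094 and -0.083) and above 0 beyond 32 Mb.

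Coverage, the contacts a bin made with other bins on the scale of log2 CPM (contacts scaled to the library's total), was higher at 3 h on gene-rich chromosomes. The median log2 coverage of bins was higher at 3 h by 0.087 and 0.17 (replicates 1 and 2) on chromosome 19, by 0.076 and 0.14 on chromosome 22, and by 0.062 and 0.11 on chromosome 16. These are the 3 highest, and chromosome 19 is the most gene-dense human chromosome. The lowest 3 were chromosome 4, at -0.029 and -0.038, chromosome 13, at -0.015 and -0.022, and chromosome 6, at -0.0099 and -0.018. Chromosomes 4 and 13 are gene-poor. Of 23 chromosomes, 14 were higher and 6 were lower in both replicates. The trend over the 6 libraries passed in 13 of them, at an exact permutation p of 0.0222 and a Benjamini-Hochberg value of 0.0393 over 23 chromosomes. Libraries of the same replicate number deviated together in coverage, and with times permuted within replicate numbers the smallest possible p is 0.0556, so that none of the 13 could pass in that scheme. Those 13 were 11 that rose (9, 10, 11, 12, 14, 15, 16, 17, 19, 20 and 22) and 2 that fell (4 and 6). Of these, chromosome 9 changed sign after the adjustment for contact level given below (-0.0022), and chromosome 14 did so under that adjustment (-0.024) and under median-of-ratios scaling (-0.0051). The other 11 kept their sign in all 7 settings tried, some at very small values. Under median-of-ratios scaling chromosome 12 lay at 5.1e-05 and chromosome 11 at 0.0028, and chromosome 6 lay at -0.0024 under the adjustment.

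The list of gene-rich chromosomes (16, 17, 19, 20 and 22) was set against the gene-poor ones (4, 13 and 18). The list was chosen with earlier results known and does not hold the 5 densest chromosomes: chromosome 20 has 0.906 protein-coding genes per used bin, below chromosome 11 with 0.998 and chromosome 1 with 0.931. The mean difference was 0.072 on chromosome 20, against 0.015 on chromosome 11 and 0.014 on chromosome 1. The mean of the chromosome medians, gene-rich minus gene-poor, was -0.049 and -0.058 at 0.25 h, -0.0036 and 0.0069 at 1 h, then 0.036 and 0.075 at 3 h, relative to the mean of each bin over the 6 libraries. The 3 times did not overlap (rho 0.956, exact permutation p = 0.0222, Benjamini-Hochberg value 0.0444 over 14 further measures chosen with earlier results known; Pearson's r 0.963, exact permutation p = 0.0111, and 0.880 without the 0.25 h libraries). Several of these 14 restate the 7 measures above or parts of them, such as the share of contacts between chromosomes. Their Benjamini-Hochberg values depend on that overlap, and the same p of 0.0222 gave 0.0519 over the 7 measures. On 5 of 5 gene-rich chromosomes the 1 h difference lay between 0 and the 3 h difference in both replicates. Chromosome 18, though gene-poor, was not lower, with 0.0017 and 0.018. Across the 23 chromosomes the mean difference and the number of protein-coding genes per used bin had a Spearman's rho of 0.841 and a Pearson's r of 0.866, and r was 0.824 without chromosomes 19 and 22. Chromosomes of a library share its depth and total and are not independent, so no p is given.

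Gene-rich chromosomes also had fewer contacts per bin, and coverage differed with that level. The median bin of chromosome 19 held 1911 contacts (mean of the libraries) and that of chromosome 4 held 6699. After the median difference of bins of the same contact level was taken off, the differences were 0.052 on chromosome 19, 0.035 on chromosome 22 and 0.047 on chromosome 16, against 0.13, 0.11 and 0.084 before. Those of chromosomes 4, 13 and 6 were then -0.027, -0.043 and -0.0024. The order of gene-rich above gene-poor chromosomes therefore remained at a smaller size, and what lies behind the relation with contact level was not tested. With contacts between chromosomes alone, chromosome 19 differed by 0.071.

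**Figure D3:**
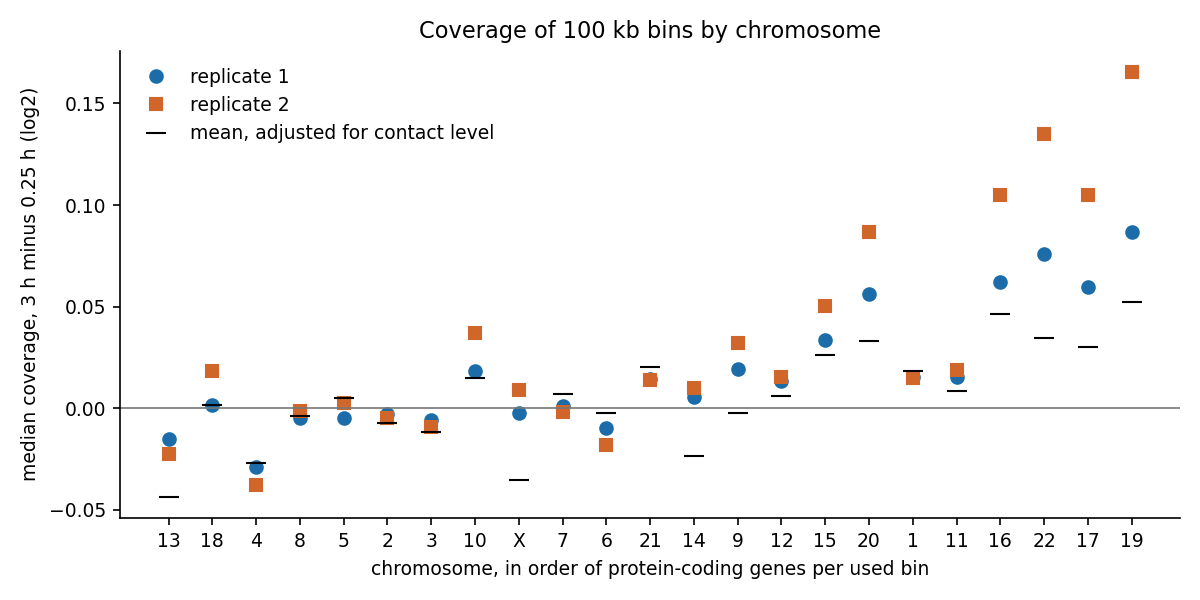
Median log2 coverage of 100 kb bins, 3 h minus 0.25 h (vertical axis), for 23 chromosomes ordered from fewest to most protein-coding genes per used bin, with replicate 1 as circles and replicate 2 as squares. Horizontal dashes give the mean of both replicates after adjustment for the contact level of the bin; chromosome 19 lies highest (0.087 and 0.17, adjusted 0.052).

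No single 100 kb bin passed the test of coverage (0 of 27774 bins, 0%, limma with Benjamini-Hochberg adjustment). At an unadjusted p below 0.05 there were 5794 bins, 4121 higher and 1673 lower at 3 h, and the smallest adjusted p was 0.0525. With the replicate number as a block, limma called 4398 bins (15.8%), 3034 higher at 3 h (10.9%) and 1364 lower (4.91%). Same-numbered libraries deviated together in coverage, with correlations of 0.28 to 0.35, which is why the blocked values are given beside the others. Without 0.25 h replicate 1 the count was 3936 and without 0.25 h replicate 2 it was 3129, where the remaining library is taken to vary like those of the other times. The differences of replicates 1 and 2 correlated across bins at 0.584, and 40.6% of bins were higher in both and 29.2% lower in both.

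The bins nearest to the threshold show the size of the differences. Coverage at chr22:20000001-20100000 was 5.27 and 5.26 (log2 CPM) at 0.25 h, 5.30 and 5.30 at 1 h, then 5.42 and 5.45 at 3 h, a difference of 0.17 (SE 0.029, limma adjusted p = 0.0525, and 0.000246 with the block). In contacts between chromosomes alone that difference was 0.11 (limma adjusted p = 0.529). Differences at chr21:45600001-45700000 and chr22:27300001-27400000 were 0.23 and 0.26. At chr1:144500001-144600000 coverage was 4.83 and 5.04 at 0.25 h, 4.77 and 4.77 at 1 h, then 4.69 and 4.71 at 3 h, a difference of -0.24 (SE 0.048, limma adjusted p = 0.0525, and 0.000205 with the block). There the difference was -0.10 in cis contacts alone (limma adjusted p = 0.165), -0.41 in contacts between chromosomes alone (2.72e-06) and -0.13 without 0.25 h replicate 2 (0.0185). Differences at chr2:191900001-192000000 and chr13:70300001-70400000 were -0.15 and -0.13. All 6 bins passed when either 0.25 h library was left out. In each of them the 0.25 h and 3 h groups did not overlap, as in 48.5% of all bins.

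Coverage was higher at 3 h in class 1, near chromosome ends and in bins with few contacts. The median difference was 0.033 and 0.034 in the 12602 bins of class 1 and -0.015 and -0.0035 in the 15049 bins of class 2. With the block, 17.1% of class 1 bins were called higher and 2.04% lower, against 5.81% and 7.34% in class 2 and 10.9% and 4.91% of all bins. Without the 5 gene-rich chromosomes the medians were 0.028 and 0.024 in class 1 and -0.021 and -0.0099 in class 2, so the classes differed outside those chromosomes too. On those 5 chromosomes both classes were higher at 3 h, with medians of 0.087 and 0.14 in class 1 and 0.049 and 0.087 in class 2. The 689 bins within 2 Mb of a chromosome end had medians of 0.054 and 0.097, and 22.4% of them were called higher with the block. Among 10 equal classes of bins by contact level, the lowest had medians of 0.073 and 0.13, and the highest had -0.019 and -0.045. These sets overlap, and their separate parts in the difference were not tested.

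**Figure D4:**
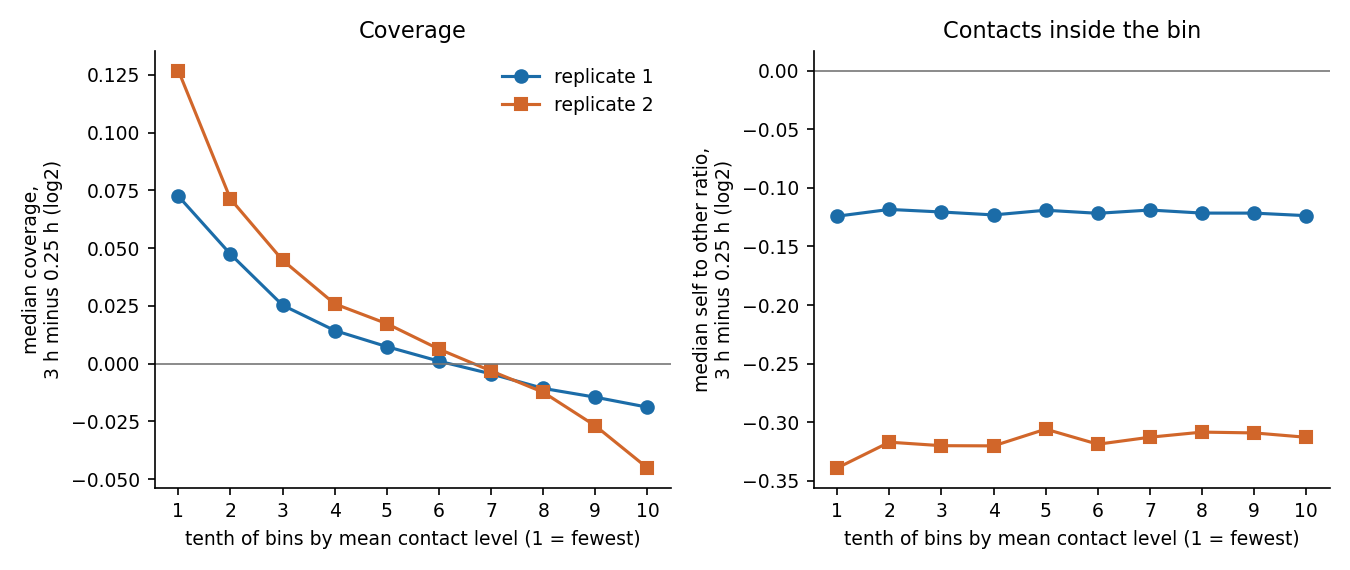
Median log2 difference, 3 h minus 0.25 h, of coverage (left) and of the ratio of self contacts to other contacts (right) in 10 equal classes of 100 kb bins by mean contact level, for replicates 1 (circles) and 2 (squares). Coverage runs from 0.073 and 0.13 in the class with fewest contacts to -0.019 and -0.045 in the class with most, while the self-contact ratio lies near -0.12 and -0.31 throughout.

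Segregation of the classes was stronger at 3 h. Classes came from an eigenvector of the observed over expected contacts at 500 kb over the 6 libraries added together, and class 1 was the side that met chromosomes 17, 19 and 22, rich in genes, more than chromosomes 4, 13 and 18, poor in genes. Compartment strength, the mean observed over expected within the extreme 20% of each class divided by that between them, was 3.95 and 3.89 at 0.25 h, 4.077 and 4.101 at 1 h, then 4.21 and 4.13 at 3 h. Every later time was above every earlier one. The difference was 0.26 in replicate 1 and 0.25 in replicate 2 (rho 0.956, exact permutation p = 0.0222, Benjamini-Hochberg value 0.0519; Pearson's r 0.955, exact permutation p = 0.0111, and 0.830 without the 0.25 h libraries). On libraries thinned to 28400086 contacts each, strength was 3.98 and 3.89 at 0.25 h and 4.20 and 4.12 at 3 h.

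The difference in strength lay mostly in contacts between the classes. Their observed over expected value fell from 0.394 and 0.392 at 0.25 h to 0.384 and 0.379 at 1 h and 0.373 and 0.376 at 3 h (rho -0.956, exact permutation p = 0.0222, Benjamini-Hochberg value 0.0444 over the 14 further measures; Pearson's r -0.976, exact permutation p = 0.0111, and -0.883 without the 0.25 h libraries). Contacts within class 1 were at 1.39 and 1.44 at 0.25 h and 1.456 and 1.4996 at 3 h, and those within class 2 at 1.72 and 1.61 at 0.25 h and 1.69 and 1.61 at 3 h. Neither trend passed (rho 0.717, exact permutation p = 0.178, and rho -0.359, exact permutation p = 0.533). Within class 1 the value was higher at each later time in both replicates, and with times permuted within replicate numbers the exact p was 0.0556, the lowest that this scheme can give. The value between the classes had the same p of 0.0556 in that scheme. Strength was higher at 3 h both for contacts within 10 Mb, at 2.08 and 2.04 against 2.23 and 2.18, and beyond 10 Mb, at 4.35 and 4.28 against 4.63 and 4.55. Class 1 took 38.8% and 39.7% of contacts at 0.25 h and 39.5% and 40.1% at 3 h, groups that overlapped (rho 0.478, exact permutation p = 0.4).

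The class of a region seldom differed between the times. None of 5595 bins of 500 kb passed in the eigenvector (0%, limma with Benjamini-Hochberg adjustment; 468 at an unadjusted p below 0.05, smallest adjusted p 0.0651). The sign was the same in both 0.25 h libraries and the opposite in both 3 h libraries in 60 bins (1.07%), of which 52 went to the class 1 sign and 8 to the class 2 sign. The 3 bins with the smallest p among those that were higher were all on chromosome 15, such as chr15:76000001-76500000, with 0.028 and 0.11 at 0.25 h, 0.97 and 0.97 at 1 h, then 0.97 and 1.03 at 3 h. Among the 3 that were lower, chr15:87000001-87500000 and chr15:53500001-54000000 differed by -0.39 and -0.31, so that 5 of these 6 bins were on 1 chromosome. Over chromosome 15 the eigenvectors of 0.25 h and 3 h correlated at 0.957 and 0.911 in replicates 1 and 2, below the 0.976 and 0.990 between the replicates of 0.25 h and of 3 h. Chromosome 15 is described here because of its bins' p-values and was not alone: the same order held on chromosomes 1, 12, 18 and 19, with 0.909 and 0.856 against 0.923 and 0.952 on chromosome 19. The third lower bin, chr22:20500001-21000000, had 1.78 and 1.55 at 0.25 h, 1.03 and 0.99 at 1 h, then 0.80 and 0.96 at 3 h. On chromosomes 9 and 22, which are rearranged in K562, the eigenvector was uncertain: the 2 libraries of 0.25 h correlated at 0.132 on chromosome 9, and the eigenvector of chromosome 22 correlated at 0.156 with the contacts that set its direction. Without both chromosomes strength was 3.974 and 3.897 at 0.25 h and 4.245 and 4.164 at 3 h.

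Contacts between chromosomes were a slightly larger part of the total at 3 h. The cis share was 90.4% and 90.2% at 0.25 h, 89.9% and 89.6% at 1 h, then 89.8% and 89.4% at 3 h (rho -0.837, exact permutation p = 0.0667, Benjamini-Hochberg value 0.0933; Pearson's r -0.893, exact permutation p = 0.0333, and -0.491 without the 0.25 h libraries). Without self contacts the cis share was 85.4% and 84.5% at 0.25 h and 84.9% and 84.4% at 3 h, groups that overlapped (rho -0.239, exact permutation p = 0.711). No bin was called for its ratio of trans to cis contacts between bins (0 of 27774, 0%, limma). Bins at an unadjusted p below 0.05 numbered 876 (3.15%), and the median difference was 0.048 in replicate 1 and -0.011 in replicate 2. The 6 bins with the smallest p, at chromosomes 13, 14 and X for a higher and 19, X and 22 for a lower ratio, had adjusted p-values of 0.9997. An example is chr19:12600001-12700000, where the log2 ratio was -1.65 and -1.42 at 0.25 h and -1.90 and -1.97 at 3 h (limma adjusted p = 0.9997). The replicates thus went opposite ways in the median, and no bin passed with all 6 libraries.

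Contacts among the gene-rich chromosomes 16, 17, 19, 20 and 22, which tend to lie together in the nuclear interior, were 1.363 and 1.353 times the value expected from the totals of the chromosomes at 0.25 h, 1.382 and 1.377 times at 1 h, then 1.383 and 1.395 times at 3 h. This ratio rose over the early window (rho 0.956, exact permutation p = 0.0222, Benjamini-Hochberg value 0.0444 over the 14 further measures; Pearson's r 0.927, exact permutation p = 0.0111, and 0.709 without the 0.25 h libraries), but in the first run alone rho was 0.598 (exact permutation p = 0.267). Contacts among the acrocentric chromosomes 13, 14, 15, 21 and 22, which carry the ribosomal RNA genes and meet at nucleoli, fell from 1.140 and 1.119 times the expected value at 0.25 h to 1.116 and 1.112 at 1 h and 1.110 and 1.109 at 3 h (rho -0.956, exact permutation p = 0.0222, Benjamini-Hochberg value 0.0444; Pearson's r -0.786, exact permutation p = 0.0111, and -0.841 without the 0.25 h libraries). In the first run alone that rho was -0.717 (exact permutation p = 0.178). With times permuted within replicate numbers the exact p was 0.0556 for both ratios. Chromosome 22, in both lists, is rearranged in K562, and contacts across its junctions count here as contacts between chromosomes. Neither ratio was computed without it. Contacts among the gene-poor chromosomes 4, 13 and 18 stayed between 0.899 and 0.906 in all libraries.

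Most domain boundaries were found in the same places at both times. Insulation scores give the log2 contact frequency across a bin, so that a low score marks a boundary, and were computed from libraries thinned to 25648353 cis contacts within 2 Mb each. Single libraries gave 2874 and 2823 boundaries at 0.25 h, 2867 and 2825 at 1 h, then 2874 and 2846 at 3 h. Of 2660 boundaries found in both 3 h libraries, 93.3% (Wilson 95% interval 92.3% to 94.2%) lay within 1 bin of a boundary found in both 0.25 h libraries, and the reverse share was 94.7% of 2621. Between the replicates of a time the overlap was 91.2% at 0.25 h and 92.6% at 3 h, but these are shares of all 2874 boundaries of replicate 1, not of boundaries already found in 2 libraries, and cannot be set against the shares between times. Insulation scores correlated at 0.981 to 0.985 between any pair of the 6 libraries, over 26691 bins.

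No boundary passed the test of its insulation without the block. Of 2807 boundaries called on the early libraries together, 0 (0%) passed in limma with Benjamini-Hochberg adjustment. An unadjusted p below 0.05 was found for 149 (5.31%), a share near the threshold itself. Of these, 102 were more strongly insulated at 3 h and 47 less. The mean score at boundaries was -0.552 and -0.538 at 0.25 h, -0.561 and -0.551 at 1 h, then -0.568 and -0.553 at 3 h, with a difference of -0.016 in replicate 1 and -0.015 in replicate 2 (rho -0.717, exact permutation p = 0.178, Benjamini-Hochberg value 0.207; Pearson's r -0.679, exact permutation p = 0.111, and -0.332 without the 0.25 h libraries). The boundary nearest to passing was chr9:130800001-130900000, with scores of -1.12 and -1.11 at 0.25 h, -0.90 and -0.85 at 1 h, then -0.76 and -0.82 at 3 h (limma difference of 0.33 with an SE of 0.055, adjusted p = 0.345). With the replicate number as a block, 1 boundary was called, at chr22:37900001-38000000, with scores of -0.48 and -0.19 at 0.25 h, -0.60 and -0.36 at 1 h, then -1.03 and -0.70 at 3 h (limma adjusted p = 0.00176 with the block, 0.522 without it).

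Coverage at boundaries was below that of their flanks at each time. In 20 kb bins of the second run, the 100 kb of the boundary bin had a mean log2 coverage, against the mean log2 coverage of the 10 outer bins of each flank, of -0.058 and -0.052 at 0.25 h, -0.057 and -0.053 at 1 h, then -0.056 and -0.049 at 3 h. The 0.25 h and 3 h groups overlapped (rho 0.359, exact permutation p = 0.533). In 100 kb bins of both runs, where the reference was instead the log2 of the mean contacts of the bins 3 to 5 bins away, so that the 2 scales differ, the boundary bin lay at -0.077 and -0.073 against its flanks at 0.25 h and at -0.071 and -0.067 at 3 h. At that bin size the 0.25 h and 3 h groups did not overlap (rho 0.717, exact permutation p = 0.178, and rho 0.837, exact permutation p = 0.0667, in each run alone). In the 20 kb bins, self contacts in the boundary bin against the flanks were at -0.086 and -0.087 at 0.25 h and -0.089 and -0.084 at 3 h (rho 0.000, exact permutation p = 1.000). None of these trends passed the test.

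**Figure D5:**
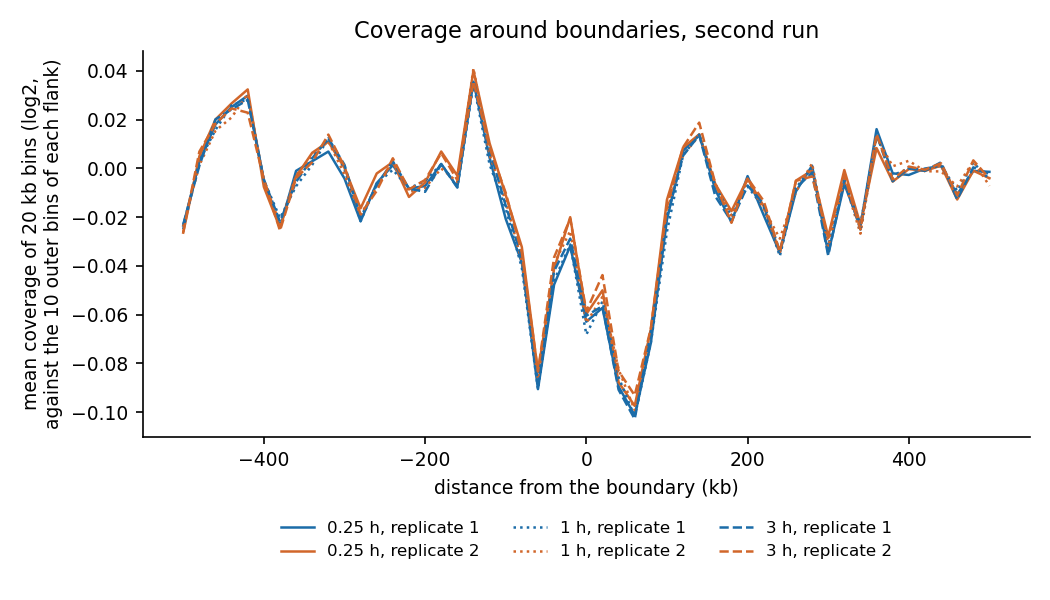
Mean log2 coverage of 20 kb bins of the second run around 2807 boundaries (vertical axis, against the 10 outer bins of each flank) by distance from the boundary in kb, with replicate 1 and replicate 2 in separate colours and 0.25 h, 1 h and 3 h as solid, dotted and dashed lines. The 6 lines nearly coincide; the 100 kb of the boundary bin, from -40 to 40 kb, lies at -0.058 and -0.052 at 0.25 h and at -0.056 and -0.049 at 3 h, and the lowest 20 kb bin lies to one side, at 60 kb, with -0.10 and -0.097 at 0.25 h.

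Landmark loci were placed on hg19 from general knowledge of their positions, since no annotation of that build was used, and 35 of 36 had a used bin. In 19 of the 35 coverage was higher at 3 h in both replicates and in 5 it was lower in both, beside 40.6% and 29.2% of all bins. Many loci sum several bins, up to 40, so their share is not on the scale of single bins. None of the landmarks' 241 bins was called without the block, and with it 51 were called higher and 8 lower, beside 10.9% and 4.91% of all bins. Of the 51, 15 lay at RBFOX1, 14 in the zinc finger gene cluster of 19q13.4 and 10 in the major histocompatibility region. Neighbouring bins of these few loci thus make up most of the 51, which does not describe the landmarks at large. The alpha-globin cluster on chromosome 16, expressed in K562, had 2.89 and 2.88 log2 CPM at 0.25 h, 2.99 and 2.99 at 1 h, then 3.06 and 3.07 at 3 h, a difference of 0.17 and 0.19. The beta-globin cluster on chromosome 11 had 5.51 and 5.64 at 0.25 h, 5.53 and 5.57 at 1 h, then 5.53 and 5.56 at 3 h, a difference of 0.021 and -0.079. Its replicates went opposite ways, while the alpha-globin cluster, which lies within 2 Mb of a chromosome end, was higher in both, with groups that did not overlap. Coverage groups did not overlap in 48.5% of all bins.

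Besides the alpha-globin cluster, the highest coverage differences among the landmarks were at CBFA2T3 (0.19 and 0.35, in 1 used bin), which encodes a transcriptional corepressor of blood progenitors, at the imprinted IGF2-H19 locus (0.14 and 0.25) and at the zinc finger gene cluster of 19q13.4 (0.083 and 0.25). In that cluster 14 of 17 bins were called higher with the block, beside 49.8% of all bins of chromosome 19 and 10.9% of all bins. CBFA2T3 and this cluster lie within 2 Mb of a chromosome end, where bins had medians of 0.054 and 0.097, and IGF2-H19 begins at 2 Mb. At 0.25 h CBFA2T3 had 2.54 and 2.39 log2 CPM and IGF2-H19 2.78 and 2.81 per bin. Both lay below the median of 3.41 of the lowest class by contact level, which differed by 0.073 and 0.13. Whether these loci differ beyond position and contact level was not tested. The lowest coverage differences were at NEUROD1 (-0.045 and -0.11), a neuronal transcription factor gene, at MYB (-0.018 and -0.10), a regulator of blood progenitors, and at ALB (0.0052 and -0.086), the liver gene of serum albumin. Genes of other tissues were on both sides, as RBFOX1, a neuronal splicing factor gene on chromosome 16, had differences of 0.073 and 0.15. With the block 15 of its 18 bins were called higher, beside 43.4% of all bins of chromosome 16. BCR and ABL1, amplified in K562, had 0.11 and 0.21 and 0.073 and 0.17.

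Self-contact shares were lower at 3 h in both replicates at 30 of the 35 landmarks, and 96 of their 241 bins were called lower in limma and 0 higher. Of all bins, 86.1% were lower in both replicates and 34.3% were called lower. In percentage points, the largest difference was in the zinc finger gene cluster of 19p12, which carries H3K9me3 in many cell types. Its share was 27.5% and 32.8% at 0.25 h, 25.6% and 26.1% at 1 h, then 24.06% and 24.05% at 3 h. In limma, 29 of its 40 bins were called lower, and these are part of the 96. LMO2, a cofactor of erythroid transcription, followed with 28.3% and 31.3% at 0.25 h and 25.4% and 24.8% at 3 h, and KIT, the receptor of stem cell factor, with 28.7% and 30.9% against 26.12% and 25.03%. In the opposite direction, KLF1, an erythroid transcription factor gene, had 16.6% and 15.3% at 0.25 h, 16.1% and 17.1% at 1 h, then 18.9% and 16.5% at 3 h. CBFA2T3 had 10.1% and 7.62% at 0.25 h and 11.4% and 8.80% at 3 h, and GAPDH, a housekeeping gene, 16.7% and 16.7% against 18.2% and 16.8%. None of the bins of these 3 loci passed the test. At the beta-globin cluster the share was 25.6% and 25.5% at 0.25 h and 23.90% and 23.52% at 3 h, and at the alpha-globin cluster 22.6% and 25.1% against 19.63% and 21.02%. The groups did not overlap at either, as in 83.2% of all bins.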

How the data were processed

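Hi-C contacts were measured in K562 cells after 0.25, 1, 3 or 12 h of HindIII digestion. The authors deposited balanced signal for pairs of bins, of 50 kb in the first run and 20 kb in the second. HiC-Pro 2.11.1, Bowtie2 2.3.4.1 and hg19 were used, per the submitters' processing notes. Whole contacts were recovered as signal divided by the balancing factors of both bins, within 0.01 of a whole number for all but 2 pairs. The contacts of both runs were added, and valid bins of 100 kb and 500 kb on 23 chromosomes were kept.

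Differences (3 h minus 0.25 h) were tested with limma 3.58.1 in R 4.3.3 (lmFit, eBayes with trend) on the 6 early libraries with time as a factor and Benjamini-Hochberg adjustment at 0.05, with a pseudocount of 0.5. Both steps were first tested on simulated data. Global measures were tested by exact two-sided permutation of times over 720 arrangements. Other steps used Python 3.11.15, numpy 2.4.6, scipy 1.17.1 and pandas 2.3.3. Boundaries were insulation minima of prominence 0.2 or more with a window of 500 kb, on matrices balanced over at most 60 iterations. The eigenvector was the component, of the leading ones, most correlated with contacts to gene-rich against gene-poor chromosomes, and a component other than the first was taken on chromosomes 9, 17, 19, 21 and 22.

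Libraries with the same replicate number deviated together in coverage (correlations of 0.28 to 0.35) and in self contacts (0.13 to 0.22), in 3 of 3 pairs of times. The correlations were 0.014 to 0.023 in trans share and 0.0052 to 0.035 in insulation. In the eigenvector they were 0.70 between 0.25 h and 1 h, but -0.036 between 0.25 h and 3 h and 0.0088 between 1 h and 3 h, so blocked values stand beside coverage and self contacts. On chromosome 9 the eigenvectors of the 2 libraries of 0.25 h correlated at only 0.132, and what lies behind the 0.70 was not tested. The labels do not say what the number stands for. Bins were named by size among those called (at least 500 contacts in each library), or by smallest p where none was called. Protein-coding genes per chromosome came from RefSeq for another build, and were used as counts only. Members and lists were chosen with earlier results of these data known. Alternatives covered the run, replicate, block, bin size, scaling, filter, window and balancing.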

Additional observations from a re-analysis of the deposited data

How the results depend on the processing

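Of 68 values of the main answers recomputed under other settings than leaving out a library, 53 were rated unchanged. For trends this meant the same direction and side of the threshold. For limma tests it meant a count of calls that was still 0 or close to the main one. Counts of called bins moved most. For coverage, limma called 0 bins, against 1 with cis contacts only, 6 with contacts between chromosomes only and 4398 with the replicate block, and leaving out each library gave 0 to 3936. For self contacts it called 9530, against 3520 of 5595 in 500 kb bins, 21 in the first run, 4642 without the 1 h libraries and 0 after centring (chosen after seeing the data), and 0 to 20122 on leaving out each library. For trans share, leaving out each library gave 0 to 42. For boundaries, 6 were called without balancing and 1 with the replicate block, and the boundary at chr16:4400001-4500000 turned from -0.23 to 0.011 without balancing. With the replicate block, 10220 bins were called for self contacts, of which 36 were higher at 3 h against 9 without it, and 0 for trans share and for the eigenvector.

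Self share, decay slope, compartment strength and the gene-rich minus gene-poor difference had a rho of -0.956 or 0.956. Under the replicate block, with times permuted within replicate numbers, rho is the same by construction and p went from 0.0222 to 0.0556, the smallest that scheme can give. Cis share, the share under 1 Mb, mean insulation and contacts within class 1 had that p too. So did contacts between the classes, among the gene-rich chromosomes and among the acrocentric chromosomes. On leaving out each library rho was -0.949 or 0.949, with a smallest possible p of 0.0667. Strength from the upper and lower 10% gave 0.837, and the slope from 1 to 30 Mb -0.359. The trend among gene-poor chromosomes turned to -0.053 without 0.25 h replicate 1, within a range up to 0.791 on leaving out each library. The deposited balanced signal was not run for coverage, since it gives all bins the same total. Depth differed with time, and 2 libraries a group limit every test.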
